A study of Mus musculus with 8 samples.

Results

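The genes described here are 39 imprinted genes of the mouse, Gnas among them, that are expressed wholly or mainly from the allele of 1 parent in at least some tissues. They were taken from a fixed list of symbols, which was chosen with earlier results of these data known. Every non-control probe of the array that carries one of these symbols was kept, which gave 73 of 55681 probes. By textbook knowledge 23 of the genes are expressed from the paternal allele and 14 from the maternal allele, while for Gnas and Grb10 the allele depends on promoter or tissue. RNA was measured in the nucleus accumbens (NAc) of adult male C3H/Hen mice on 1-colour Agilent arrays, with 4 maternally separated (MS) mice and 4 control mice, 1 array a mouse. MS pups were taken from the dam for 180 min a day from postnatal day 2 to 14, while the dam was exposed to unpredictable stressors, and control pups stayed with undisturbed dams. All mice of both groups were weaned on postnatal day 21, were tested in an operant food task that began at 4 to 5 months of age, and were food deprived for 12 h before they were killed. The question put to these arrays was which NAc transcripts differ between MS and control adults of this strain. In each group 3 of the 4 mice share the leading digit of their individual number, whose meaning the labels do not give. The mouse with another digit is mouse 1 in each group, and no leading digit occurs in both groups. Litter of origin was not used here, so the mice of a group may not be independent of each other, and the p-values measure only the spread between these mice.

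Genomic imprinting is set in the germ line, where DNA methylation is laid down at CpG-rich control regions in either the egg or the sperm and is then kept in the offspring on that parental copy. One control region acts on a cluster of genes, so that paternally and maternally expressed genes often lie side by side, and many of them are strongly expressed in the brain. They are known for roles in growth, suckling, feeding, energy use and maternal care. Gnas encodes the stimulatory G protein alpha subunit that couples receptors to adenylyl cyclase, and its locus holds several promoters whose transcripts share their downstream exons and differ in the parental allele they use. An array of this kind measures the sum over both alleles and carries no information on which allele is expressed.

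The probes on which the description turns most are those of Gnas and of Nap1l5, a paternally expressed member of the nucleosome assembly protein family. The first 30 bases of each 60-base probe are shown, because they identify the stretch of transcript that each value was read from. Coordinates are those of the whole probe on the mm9 build.
Gnas A_55_P2081318 (chr2:174122337-174122396, plus strand, annotated to the transcript ENSMUST00000109095): atgggggacattgaagggatttgctggagc
Gnas A_52_P190394 (chr2:174125482-174125541, plus strand, annotated to NM_201617): acttcttcacccgagccttcggaagctgct
Gnas A_55_P2081323 (chr2:174163501-174163560, plus strand, annotated to NM_019690): ctgcacgtctttcttcctatgactctacaa
Gnas A_55_P2081313 (chr2:174171933-174171992, plus strand, annotated to NM_010309): taagagtgaaacgtaattgtacaagcagtt
Nap1l5 A_51_P295410 (chr6:58855387-58855446, minus strand): gtgacttaataaatggtgcaaaattaaatt
Nap1l5 A_55_P2012552 (chr6:58856046-58856105, minus strand): tcttcagtttctttacattttccagcgcag

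Levels are given as the log2 of the processed signal minus the 75th percentile of that array, so that 0 is the level of a spot at the 75th percentile, and all differences are MS minus control on this log2 scale. A probe was tested when 4 or more of the 8 arrays had it well above background. This left 34 of the 39 genes with 58 of their 73 probes, among 33111 tested probes in all. On the array scale the share of probes well above background was 57.7% to 61.2% in the MS mice and 57.3% to 69.7% in the control mice, with control mouse 4 at the upper end. All 10 markers of medium spiny neurons, the main neurons of the NAc, were bright enough to be tested, as the tissue label implies, and all 10 were higher in sign in MS mice, by a median of 0.31. All 8 markers of the neighbouring pallidum were lower in MS mice without overlap of the groups, by a median of -1.21, where 4.91% of all tested probes were. Of 9 tested markers of the hypothalamus and preoptic area 8 were lower in sign, by a median of -0.73. The marker lists were written with earlier results of these data known, so these counts are a description and not a test. Avp, Sim1 and Otp, 3 defining hypothalamic genes, were too dim to be tested.

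No member probe passed the threshold in either direction (limma, Benjamini-Hochberg adjusted p under 0.05 over all tested probes). The lowest adjusted p among the 58 was 0.107, and over the whole array the same test called 0.00302% of the probes, a single one. At an unadjusted p under 0.05 there were 10 member probes lower and 2 higher in MS mice, where 7.71% of all tested probes were lower and 6.35% higher by that rule. The member probes leaned to lower values in MS mice: 39 of 58 had a negative difference (67.2%, against 49.4% of all tested probes). Probes on which the 4 MS mice and the 4 control mice did not overlap numbered 11 lower in MS (19%, against 4.91% of all tested probes) and 3 higher in MS (5.17%, against 3.76%). Because the members were chosen with earlier results of these data known, these shares describe the list and are no test of imprinted genes. These 14 probes belong to 9 genes, which are Gnas, Nap1l5, Ndn, Snrpn, Impact and Trappc9 on the lower side and Kcnq1ot1, Mest and Ppp1r9a on the higher side. With 4 mice a group, the exact two-sided permutation test over the 70 arrangements can give no p below 0.0286, and it takes that value on any probe without overlap, so it adds nothing to this choice of probes.

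The 3 Gnas probes that could be tested read lower in MS mice without overlap, though none passed the threshold. The probe nearest the shared 3′ end of the locus, A_55_P2081313, was well above background on all arrays, with 5.63, 5.45, 5.37 and 5.50 in MS mice 1 to 4, against 5.81, 5.89, 5.71 and 6.04 in control mice 1 to 4. The lowest control mouse lay just above the highest MS mouse, and the difference was -0.37 (SE 0.09, limma adjusted p = 0.151). With the deposited log2 values the groups overlapped on this probe (difference -0.41, limma adjusted p = 0.0996). This probe is annotated to several transcripts of the locus at once and therefore reports their sum.

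The next probe upstream had the same direction with a wider spread. A_55_P2081323 had 4.05, 3.88, 3.74 and 4.08 in MS mice 1 to 4, against 4.31, 4.17, 4.62 and 5.23 in control mice 1 to 4. The 4 MS mice lay close together, and control mouse 4 stood well above the other control mice. The difference was -0.64 (SE 0.21, limma adjusted p = 0.247), and it was -0.27 between the mice on row 1 of the slide and -1.01 between those on row 2, where control mouse 4 was hybridised.

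The 2 probes at the upstream end of the locus were dim. A_55_P2081318 read -3.56, -5.68, -4.99 and -3.67 in MS mice 1 to 4, against -1.97, -2.71, -1.73 and -0.66 in control mice 1 to 4, and it was well above background on 2 MS arrays and on all 4 control arrays. Every MS mouse was below every control mouse, and the difference of -2.71 (SE 0.56, 95% interval -3.99 to -1.43, limma adjusted p = 0.109) was the most negative of all tested member probes. Its size depends on how background is removed at this level: it was -1.10 after normexp background correction (adjusted p = 0.0154) and -1.38 with the deposited log2 values (adjusted p = 0.0245), and it passed the threshold in both. A_52_P190394, which lies 3.1 kb further along, was well above background on 0 MS arrays and 1 control array, that of control mouse 4, so it was not tested and no fold is given. Its readings of -7.36, -7.63, -7.14 and -7.26 in MS mice 1 to 4, against -6.56, -6.72, -5.34 and -3.14 in control mice 1 to 4, are therefore not well above background on any array but that one.

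**Figure D1:**
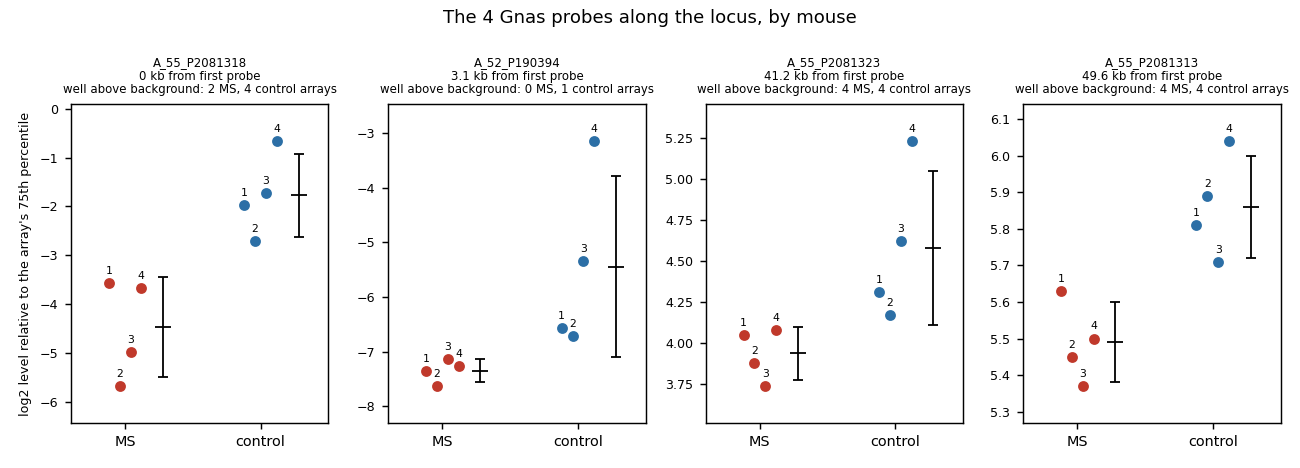
Log2 level, relative to the 75th percentile of each array, of the 4 Gnas probes in their order along the locus, with MS mice (red) left of control mice (blue); numbers name the mouse and the bars are the mean ± SD of 4 mice. On the 3 tested probes all MS mice lie below all control mice, and control mouse 4 is the highest control, while A_52_P190394 was above background on that control array alone; the y axes differ between panels.

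The partners of the Gnas product did not share one direction. Of 20 listed partners with 32 tested probes, 7 genes were lower and 13 higher in sign in MS mice, with a median of 0.08, and none passed the threshold. The groups did not overlap on 5 probes lower and 6 higher in MS mice (15.6% and 18.8%, against 4.91% and 3.76% of all tested probes). Adcy8, an adenylyl cyclase, had the most negative difference at -1.25 (SE 0.21, limma adjusted p = 0.0773), with -4.30 to -3.74 in MS mice, against -2.97 to -2.08 in control mice. These levels are low, and the size of such a difference can depend on how background is removed, as for the dim Gnas probe A_55_P2081318. Gng2, a gamma subunit, differed by -0.71 (SE 0.20) and Adcy2, another cyclase, by -0.50 (SE 0.11). Gng7, the gamma subunit that is abundant in striatum, differed by 0.38 (SE 0.11) on the probe with the larger difference. Gnal, which encodes the olfactory-type stimulatory alpha subunit that takes the place of the Gnas product in spiny neurons, was higher in MS mice without overlap on both A_55_P2119633 and A_55_P2119628, with 6.16 to 6.44 in MS mice, against 5.87 to 6.14 in control mice, on the first of them (difference 0.27, SE 0.10, limma adjusted p = 0.268).

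Among the paternally expressed genes, Nap1l5 stood closest to the threshold. The probe A_51_P295410 had 3.80, 3.33, 3.68 and 3.66 in MS mice 1 to 4, against 4.09, 4.28, 4.18 and 4.58 in control mice 1 to 4, a difference of -0.67 (SE 0.13, limma adjusted p = 0.107). The second probe, A_55_P2012552, had 1.73, 1.32, 1.31 and 1.58 in MS mice, against 2.00, 2.20, 1.91 and 2.52 in control mice, again a difference of -0.67 (SE 0.15, limma adjusted p = 0.128). The groups were clearly apart on both probes, and the differences were alike on the 2 rows of the slide, at -0.62 and -0.71 for the first probe and -0.57 and -0.77 for the second. Both probes passed the threshold with normexp background correction (limma adjusted p = 0.0204 and 0.0245), with the deposited values (0.0345 and 0.0426) and with a variance trend and robust moderation (0.0190 and 0.0372), which called 3 member probes each, all lower, and 1.19%, 0.979% and 1.18% of all probes as lower, and in none of the other alternatives tried.

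Nap1l5 lies inside an intron of another gene and has its own CpG-rich promoter. Because imprints are written on CpG dinucleotides, the 300 bases around its start in RefSeq (most of them upstream, GRCm38.p6, minus strand, chr6:58907077-58907376) are shown with each of the 17 CpG dinucleotides in capitals, followed by the Gnas window that holds the most of them, 40 (plus strand, chr2:174329756-174330055). DNA methylation was not measured in these mice. The Gnas window was picked by its CpG count alone and is not given as the site of an imprint.
Nap1l5 promoter: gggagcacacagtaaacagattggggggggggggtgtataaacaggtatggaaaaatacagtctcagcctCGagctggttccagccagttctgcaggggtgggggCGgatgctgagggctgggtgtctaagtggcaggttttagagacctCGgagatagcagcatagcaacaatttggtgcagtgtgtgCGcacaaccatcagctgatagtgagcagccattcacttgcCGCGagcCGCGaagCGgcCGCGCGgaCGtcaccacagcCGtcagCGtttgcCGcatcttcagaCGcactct
Gnas promoter window: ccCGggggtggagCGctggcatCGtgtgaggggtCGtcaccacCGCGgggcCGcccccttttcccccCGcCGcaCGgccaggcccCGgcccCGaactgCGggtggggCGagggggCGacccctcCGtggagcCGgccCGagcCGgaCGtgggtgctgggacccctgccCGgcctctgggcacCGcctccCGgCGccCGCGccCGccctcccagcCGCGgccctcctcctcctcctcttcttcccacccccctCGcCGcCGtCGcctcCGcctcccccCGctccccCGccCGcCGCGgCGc
RefSeq windows were found for 30 of the 39 genes. The highest CpG count of any window of a gene had a median of 17 over these 30 genes, against 8 over all 27025 genes with a window. The letters TGCCGC, the core that the imprint-keeping zinc finger protein Zfp57 recognises once methylated, were searched on both strands. They occurred in a window of 11 of the 30 genes (36.7%), against 13.1% of all genes. Among genes with a single window they occurred in 4 of 19 members (21.1%), against 11.3% of all. The letters themselves hold a CpG, and these shares were not matched for CpG count. The Nap1l5 window holds the letters 2 times and none of the 4 Gnas windows holds them. These are matches of letters and say nothing of binding.

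The Prader-Willi and Angelman region of chromosome 7 spans 3063 kb between its outermost probes here and holds 6 members, of which 5 were tested. Its paternally expressed genes Ndn, Magel2 and Snrpn read lower in MS mice, while Ube3a, which neurons express from the maternal copy, read higher. Ndn encodes necdin, a MAGE family protein that restrains proliferation and favours survival of neurons. Its probe (A_52_P451644, chr7:69493847-69493906 on mm9) had 3.51, 3.25, 3.05 and 3.37 in MS mice 1 to 4, against 3.68, 3.59, 3.62 and 3.83 in control mice 1 to 4. The control mice lay within a narrow range above all MS mice, and the difference was -0.39 (SE 0.11, limma adjusted p = 0.184).

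Snrpn, which encodes a splicing protein of neurons and whose promoter holds the control region of this domain, was lower on all 3 of its probes without overlap. The probe A_52_P354390 had 4.31, 4.30, 4.31 and 4.45 in MS mice 1 to 4, against 4.68, 4.51, 4.54 and 4.57 in control mice 1 to 4 (difference -0.24, SE 0.07, limma adjusted p = 0.199). A_55_P1998194 had 3.20, 3.17, 3.23 and 3.33 in MS mice, against 3.44, 3.41, 3.44 and 3.42 in control mice (-0.20, SE 0.06, limma adjusted p = 0.228). A_55_P1990116 had 1.55, 1.52, 1.41 and 1.48 in MS mice, against 1.62, 1.63, 1.63 and 1.64 in control mice (-0.14, SE 0.06, limma adjusted p = 0.371). The differences were small, and the groups stayed apart because the control mice differed so little from each other on the last 2 probes. The Snrpn probes also carry the accession of Snurf, which shares its transcript, so Snrpn and Snurf cannot be told apart.

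Magel2, a MAGE family partner of ubiquitin ligases in endosomal sorting, had the most negative difference of the paternally expressed genes. It had 0.15, -0.65, -0.49 and -0.47 in MS mice 1 to 4, against 0.11, 0.20, 0.50 and 1.14 in control mice 1 to 4, which gives -0.85 (SE 0.25, limma adjusted p = 0.197). MS mouse 1 lay just above control mouse 1, so the groups overlapped by that mouse. Magel2 was added to the genes with values for every mouse after its values were seen. In the same region the 2 Peg12 probes differed by 0.00 and 0.12, the 2 Ube3a probes by 0.11 and 0.31 with overlapping groups, and Mkrn3 was too dim to be tested.

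The other paternally expressed gene with lower values and no overlap was Impact, which keeps the amino acid sensor kinase Gcn2 in check in neurons. The probe A_51_P483220 had 5.15, 5.0, 5.01 and 5.08 in MS mice 1 to 4, against 5.26, 5.34, 5.20 and 5.51 in control mice 1 to 4 (difference -0.27, SE 0.08, limma adjusted p = 0.223). The gap between the groups was small, and on its second probe, with a difference of -0.22, they overlapped.

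Kcnq1ot1, a paternally expressed long non-coding RNA that silences its neighbours in cis, and Mest, a hydrolase-like protein linked to growth and maternal behaviour, had values in the other direction. The Kcnq1ot1 probe A_55_P2408415 (chr7:150440140-150440199 on mm9, minus strand) had 1.95, 1.82, 1.70 and 1.67 in MS mice 1 to 4, against 1.57, 1.66, 1.48 and 1.62 in control mice 1 to 4 (difference 0.20, SE 0.08, limma adjusted p = 0.330). All MS mice were higher, though MS mouse 4 and control mouse 2 nearly met. The second probe differed by 0.23 with overlap. The non-coding RNA is read by this probe, shown whole:
Kcnq1ot1 A_55_P2408415: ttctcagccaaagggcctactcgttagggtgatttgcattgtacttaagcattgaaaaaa
Of the members that Kcnq1ot1 silences on the paternal copy, Cdkn1c, an inhibitor of the cell cycle, differed by -0.14 (SE 0.15). Slc22a18, a transporter, differed by -0.01 (SE 0.13), and Phlda2 was too dim to be tested. Both differences were smaller in size than their SE, and an effect of Kcnq1ot1 on these genes was not tested.

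The 3 Mest probes disagreed. A_51_P124535 had 0.81, 0.86, 0.80 and 0.98 in MS mice 1 to 4, against 0.65, 0.70, 0.69 and 0.74 in control mice 1 to 4 (difference 0.17, SE 0.07, limma adjusted p = 0.311), without overlap. The other two, at 0.04 and -0.11, overlapped, so no single direction can be given for the gene.

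**Figure D2:**
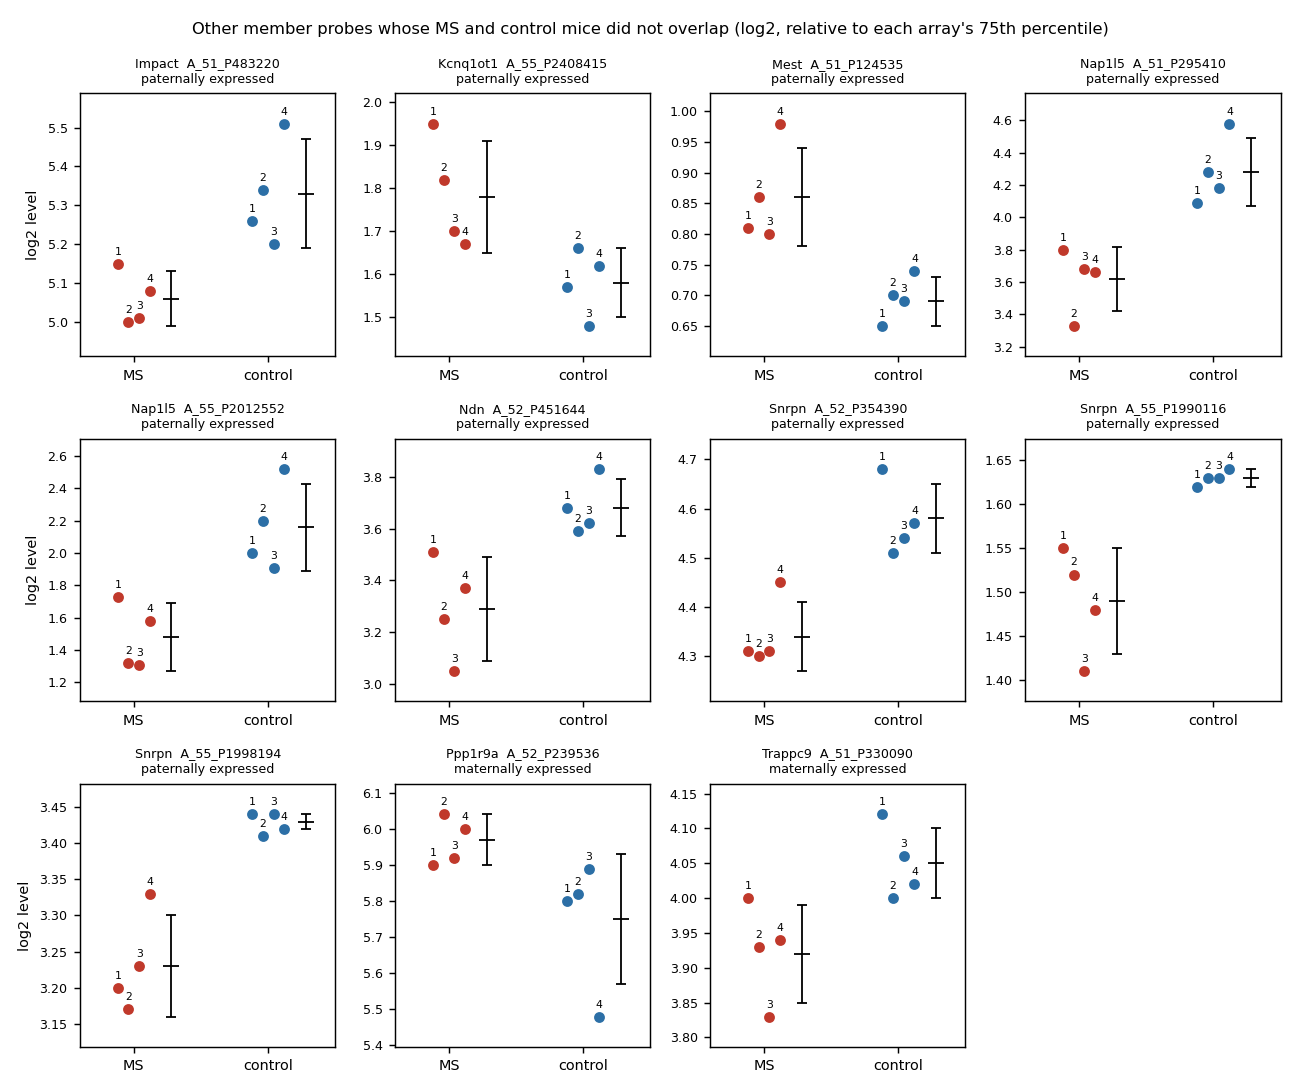
Log2 level, relative to the 75th percentile of each array, of the 11 probes of genes other than Gnas on which MS mice (red, left) and control mice (blue, right) did not overlap; numbers name the mouse and the bars are the mean ± SD of 4 mice. The 8 lower probes include both of Nap1l5 and all 3 of Snrpn, the 3 higher ones are of Kcnq1ot1, Mest and Ppp1r9a, and the y axes differ between panels.

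Over the paternally expressed genes as a whole, 20 of 23 could be tested, 13 with a negative and 7 with a positive mean difference over their probes. Their median difference was -0.14, against 0.00 over all genes tested, and the genes ran over -0.85 to 0.22. On 37 probes the groups did not overlap 7 times with lower and 2 times with higher values in MS mice. These are 18.9% and 5.41%, against 4.91% and 3.76% of all tested probes. Of the maternally expressed genes 12 of 14 could be tested, 9 with a negative and 3 with a positive difference. Their median was also -0.14, with a range over the genes of -0.89 to 0.23. On 17 probes the groups did not overlap 1 time lower and 1 time higher (5.88% each, near the shares of all tested probes). The medians of the 2 allele classes were thus equal to 2 decimals with these values, though not under every setting. With the deposited values they were -0.14 for the paternally and -0.10 for the maternally expressed genes. Without control mouse 4 they were -0.06 and -0.12. The 3 other probes without overlap on the lower side were of Gnas. A test of the difference between the classes was not made, because the genes were chosen with earlier results of these data known.

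In the maternally expressed class the lower probe without overlap was of Trappc9, a subunit of a vesicle tethering complex. It had 4.00, 3.93, 3.83 and 3.94 in MS mice 1 to 4, against 4.12, 4.00, 4.06 and 4.02 in control mice 1 to 4 (difference -0.13, SE 0.07, limma adjusted p = 0.438). MS mouse 1 and control mouse 2 were equal to the second decimal. The higher probe was of Ppp1r9a, which encodes neurabin, an actin-binding scaffold for protein phosphatase in dendritic spines. It had 5.90, 6.04, 5.92 and 6.00 in MS mice 1 to 4, against 5.8, 5.82, 5.89 and 5.48 in control mice 1 to 4 (difference 0.22, SE 0.10, limma adjusted p = 0.372). Control mouse 4 was far below the other control mice, which were close to the MS mice, and the second Ppp1r9a probe differed by 0.24 with overlap. Ppp1r9a is described as imprinted in placenta and muscle and not in brain.

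When only genes described as imprinted in brain were kept, the paternally expressed median was -0.12 over 19 genes and the maternally expressed median -0.14 over 7 genes. Igf2r, which neurons express from both copies, differed by 0.02 (SE 0.07), and decorin (Dcn), an extracellular matrix proteoglycan imprinted in placenta, by -0.14 (SE 0.16). Meg3, the maternally expressed non-coding RNA of the Dlk1 to Dio3 domain, differed by 0.01, -0.11 and 0.00 on its 3 probes. The probe nearest its 3′ end, A_51_P455997, lay between 6.74 and 6.84 in MS mice, against 6.71 to 6.94 in control mice, and a 95% interval of its difference ran over -0.17 to 0.16. Grb10, an adaptor that dampens insulin receptor signalling and is expressed from the paternal copy in neurons, differed by -0.22 (SE 0.15).

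**Figure D3:**
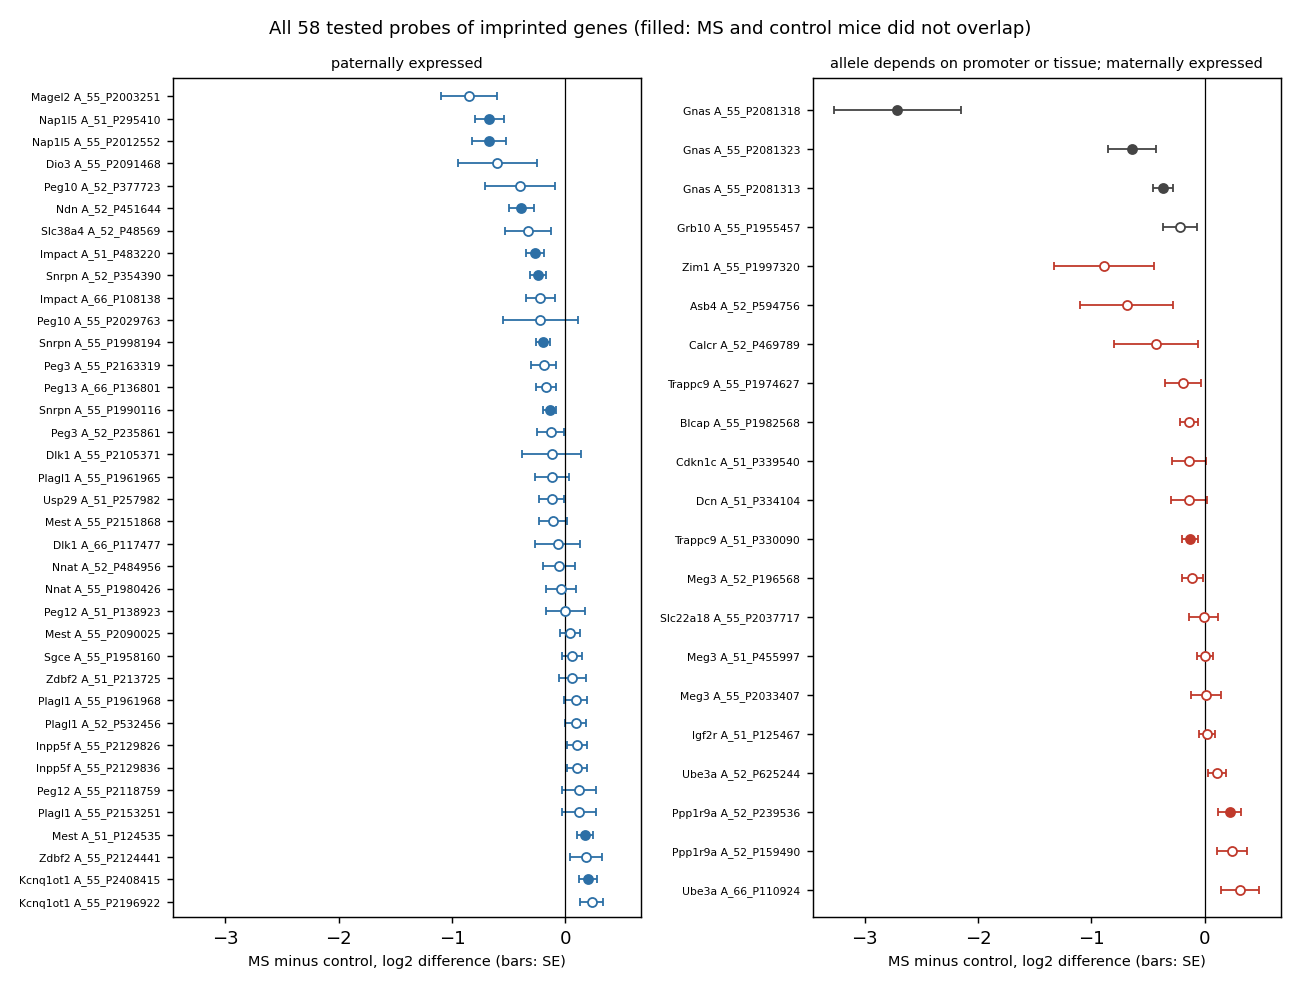
MS minus control log2 difference of each of the 58 tested probes, with its SE from limma, for the paternally expressed genes (left, blue) and for Gnas and Grb10 (grey) above the maternally expressed genes (right, red); filled points are probes on which the 4 MS and 4 control mice did not overlap. Negative values are lower in MS mice; 24 of 37 paternally expressed probes and 11 of 17 maternally expressed probes are negative.

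Several genes were split within the MS group. Calcr, the receptor of calcitonin and amylin, had 1.93, 1.67, 0.11 and 0.60 in MS mice 1 to 4, against 1.52, 1.33, 1.45 and 1.73 in control mice 1 to 4. MS mice 1 and 2 lay within or above the range of the control mice, and MS mice 3 and 4 were far below it. Dlk1, a Notch family ligand of the embryo that stays on in some neurons, followed the same order on A_66_P117477, with 3.91, 3.76, 2.92 and 3.30 in MS mice, against 3.53, 3.52, 3.40 and 3.73 in control mice. Dio3, the enzyme that inactivates thyroid hormone, had -0.81, -1.59, -2.66 and -2.24 in MS mice, against -1.07, -1.38, -1.31 and -1.14 in control mice. Both again had MS mice 3 and 4 at the bottom, though on Dio3 MS mouse 2 was also below all control mice. Peg10, a gene derived from a retrotransposon, had -1.16, -1.41, -2.54 and -1.99 in MS mice, against -1.28, -1.72, -1.64 and -0.86 in control mice, on A_52_P377723. Asb4, a ubiquitin ligase adaptor known from hypothalamic neurons, had -1.37, -2.32, -2.83 and -2.44 in MS mice, against -2.15, -2.16, -1.29 and -0.61 in control mice. On Asb4 MS mouse 1 alone stood apart, since MS mouse 2 was also below all control mice and close to MS mouse 4. These 5 genes were picked after their values were seen. Without MS mouse 3 the 2 Dlk1 differences were positive, at 0.13 and 0.11. The 5 genes lie in 2 domains, Calcr, Peg10 and Asb4 on chromosome 6 and Dlk1 and Dio3 on chromosome 12. In that order the mean differences over their probes were -0.43 (SE 0.37), -0.31 (SE 0.32), -0.69 (SE 0.41), -0.10 (SE 0.23) and -0.60 (SE 0.35). For Peg10 and Dlk1 the SE given is the average of the SEs of the probes. The groups overlapped, with limma adjusted p between 0.488 and 0.915 on their probes.

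MS mice 1 and 2 were hybridised on row 1 of the slide and MS mice 3 and 4 on row 2, each row with 2 control mice. Within row 1 the median difference of the 58 probes was 0.07 and within row 2 it was -0.20, where all tested probes had 0.03 and -0.02. A positive difference in row 1 with a negative one in row 2 was found on 26 member probes (44.8%, against 25.4% of all tested probes), and a negative difference in both rows on 19 (32.8%, against 28.7%). The paternally expressed probes had medians of 0.11 in row 1 and -0.20 in row 2, and the maternally expressed probes 0.01 and -0.16. The lean of the member list to negative values lay in row 2. Row 2 also held control mouse 4, which was the highest control mouse on 36 of the 58 probes (62.1%, against 31.3% of all tested probes), and MS mouse 3, which was the lowest MS mouse on 30 (51.7%, against 31.2%). With 2 mice of a group in a row, mouse and row cannot be told apart.

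**Figure D4:**
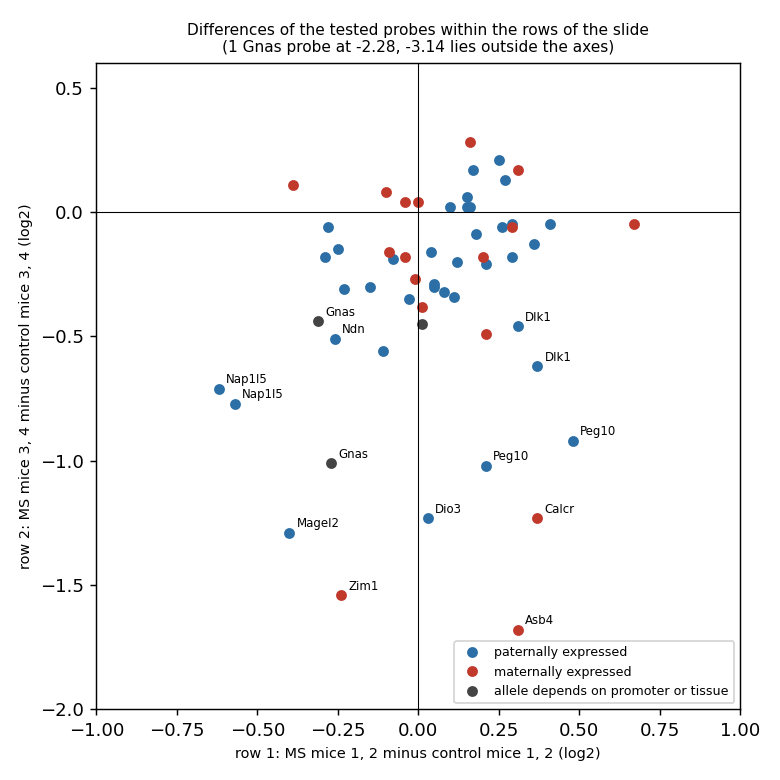
MS minus control log2 difference of the tested member probes within row 2 of the slide (y axis) against that within row 1 (x axis), 2 MS and 2 control mice in each, coloured by the expressed allele. Gnas, Nap1l5 and Ndn, whose groups did not overlap and which are therefore negative in both rows, lie at the lower left with Magel2, while Calcr, Peg10, Dlk1, Dio3 and Asb4 lie at the lower right, negative in row 2 alone.

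Neighbouring genes shared a sign in some domains and not in others. In the domain of Calcr and Peg10 on chromosome 6, which spans 1747 kb between its outermost probes, Calcr, Peg10 and Asb4 had negative differences while Sgce, which shares its control region with Peg10, had 0.06 (SE 0.09) and Ppp1r9a was positive. In the Dlk1 to Dio3 domain of 820 kb, Dlk1 and Dio3 were negative with the split described above and Meg3 was near 0. In the Peg3 domain of 292 kb all 4 tested probes were negative. Its paternally expressed zinc finger gene Peg3 had -0.13 and -0.19, the deubiquitinase Usp29 had -0.12, and the maternally expressed Zim1 had -0.89 (SE 0.44) on a dim probe. The second Zim1 probe was well above background on 0 MS arrays and 2 control arrays, with overlapping values, and was not tested. The pair of Nnat, a small membrane protein of neurons, and Blcap, in whose intron it lies, differed by -0.05 (average SE of its probes 0.13) and -0.14 (SE 0.08). Peg13, a non-coding RNA inside Trappc9, differed by -0.17 (SE 0.09).

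**Figure D5:**
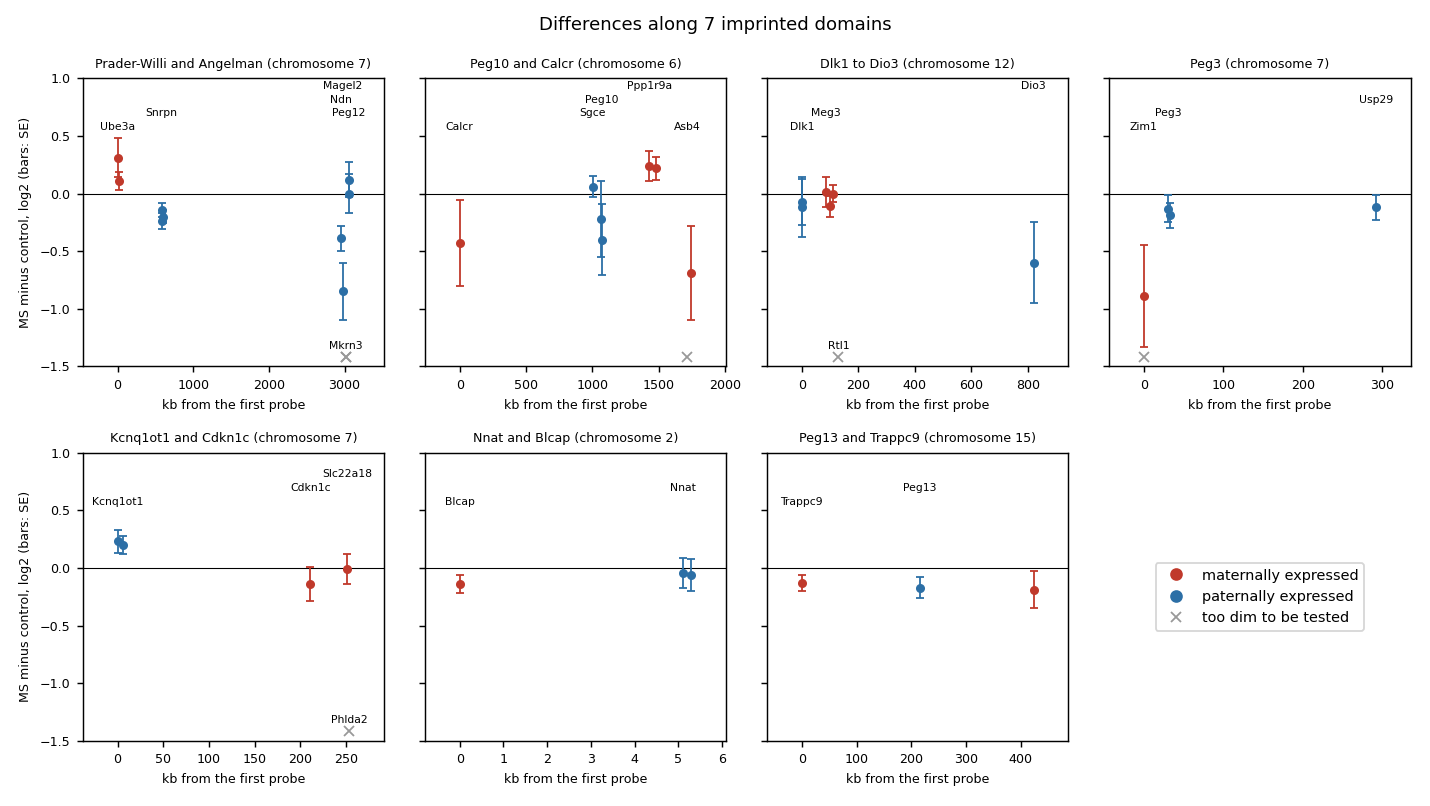
MS minus control log2 difference, with its SE from limma, of each tested probe against its distance in kb from the first member probe of the domain, for 7 imprinted domains, with maternally expressed genes in red, paternally expressed genes in blue and crosses at the bottom for probes too dim to be tested. Within the Prader-Willi and Angelman domain Ube3a is above 0 and Snrpn, Ndn and Magel2 are below it, while all probes of the Peg3, Nnat and Peg13 domains are below 0.

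The remaining tested members had overlapping groups. Zdbf2 averaged 0.12, Inpp5f, a phosphoinositide phosphatase, 0.10, and Plagl1, a zinc finger factor that sits in a network with other imprinted genes, 0.04 over 4 probes of which 1 was negative (-0.12) and 3 positive (0.09 to 0.12). Slc38a4, an amino acid transporter, was dim, with -0.33 (SE 0.20). Of the 18 members with several tested probes, 9 had only negative differences, 5 only positive ones and 4 (Meg3, Mest, Peg12 and Plagl1) differences of both signs.

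The members that could not be tested were H19, Igf2, Mkrn3, Phlda2 and Rtl1. H19, the maternally expressed non-coding RNA next to Igf2, was on 7 probes, none of which was well above background on any array. Igf2, the fetal growth factor that in the adult brain comes mainly from choroid plexus and meninges, was well above background on 3 MS arrays and 0 control arrays. It had -4.65, -4.51, -4.30 and -5.55 in MS mice 1 to 4, against -5.24, -4.69, -5.45 and -5.88 in control mice 1 to 4, and the groups overlapped. Ttr and Aqp1, which define choroid plexus, were too dim to be tested, and of the 5 other choroid plexus markers 4 were positive, with a median of 0.08. Of 7 tested markers of meninges and fibroblasts 4 were negative, with a median of -0.02, and the log2 of their summed signal ran over 5.66 to 5.96 in MS mice and 6.07 to 6.21 in control mice. The part of these markers in the Igf2 values was not tested.

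Between the groups, the lower values in MS mice went along with lower pallidal, hypothalamic and astrocyte markers. The log2 of the summed signal of the 8 pallidal markers ran over 2.74 to 3.52 in MS mice and 3.78 to 4.53 in control mice, and that of the 9 hypothalamic and preoptic markers over 3.40 to 4.00 in MS mice and 4.18 to 4.74 in control mice. The mean level of each list, with every marker centred on its mean over the 8 mice, was highest in control mouse 4, at 1.06 for the pallidal and 0.91 for the hypothalamic markers. Within the MS group the 2 lists differed: MS mice 1 to 4 had pallidal means of -0.92, -1.04, -0.13 and -0.50 and hypothalamic means of -0.01, -0.62, -0.67 and -0.54. MS mouse 3, most often the lowest MS mouse on the member probes, thus had the highest pallidal and the lowest hypothalamic mean of the MS mice. Of 7 astrocyte markers 6 were negative, with a median of -0.25, and 3 were lower without overlap. Their mean level ran over -0.50 to -0.21 in MS mice and 0.16 to 0.56 in control mice, so the groups were apart on this list too. All 6 oligodendrocyte and all 5 microglia markers were also negative, by medians of -0.17 and -0.25, with overlapping groups. The part of these markers in the values of Gnas, Nap1l5, Ndn, Magel2 and the others was not tested, and in tissue punches fewer cells of a type and less RNA per cell cannot be told apart.

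Imprinted genes outside the list were nearer to balance. Both lists were chosen with earlier results of these data known, so the contrast between them is not a test. Of 44 further imprinted genes 32 were tested, 19 negative and 13 positive, with a median of -0.01, and none passed the threshold. The groups did not overlap on 2 of 48 probes lower and 2 higher in MS mice (4.17% each, near the 4.91% and 3.76% of all tested probes). Sfmbt2, a Polycomb protein, differed by -0.61 (SE 0.17) on that probe and -0.44 on its second, and Ampd3, an AMP deaminase, by -0.31 (SE 0.09) and 0.04. Adam23, a neuronal ligand of the Lgi proteins, differed by 0.45 (SE 0.14) on the probe without overlap and by 0.07 to 0.19 on 3 others. The probe without overlap was dim, at -4.00 to -3.61 in MS mice, against -4.64 to -4.08 in control mice. Airn, the non-coding RNA that silences Igf2r, differed by 0.21 (SE 0.07) on the probe without overlap and by -0.21 (SE 0.18) on its second, so it has no single direction. Among 15 factors that set or keep imprints, 13 were tested, with a median of 0.05, and none passed. The groups did not overlap on 1 of 18 probes, higher in MS mice (5.56%, near the 3.76% of all tested probes). It is of the histone methyltransferase Setdb1, with -0.31 to -0.19 in MS mice, against -0.63 to -0.39 in control mice (difference 0.24, SE 0.08, limma adjusted p = 0.236).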

How the data were processed

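Nucleus accumbens RNA of 4 MS and 4 control mice was hybridised, 1 mouse an array, on a single slide of 1-colour Agilent arrays that was scanned once. The authors deposited scanner files with the processed signal intensity of each spot, made with Feature Extraction 10.10.1.1, in which a spatial background surface had been subtracted, and a table of log2 values for 31261 probes whose normalization and filter no source used here gives. The deposited log2 values follow the log2 of the mean signal without background subtraction (r 0.9997 to 0.9999) and have a median of 8.01 on each array.

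For the values given here, log2 of the processed signal was reduced by the 75th percentile of all non-control spots of the array, spots flagged as outliers were left out, and spots of a probe were averaged. Probes that 4 or more of the 8 arrays had well above background were fitted with limma 3.58.1 in R 4.3.3 with no covariate, and p-values were adjusted by Benjamini-Hochberg over all 33111 probes at 0.05. The step was tested on simulated data. The number of arrays limits the precision. Values of every mouse are given for Gnas probes and for tested probes with no overlap between groups, or past the threshold with normexp or the deposited values. Members, allele classes and gene lists were chosen with earlier results of these data known. Alternatives were normexp (offset 50), median and quantile scaling, the deposited values, other filters, a variance trend, slide row and column as blocks, and leaving out each mouse. Promoter windows are those of RefSeq on GRCm38.p6, while probe positions are on mm9 as deposited, and neither was converted.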

Additional observations from a re-analysis of the deposited data

Results flagged for a closer look

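Single mice stood apart from the other 3 of their group on 6 of the 116 sets of 4 mice examined (58 probes in 2 groups), where about 1 in 20, or 5.8 sets, would be flagged by chance. In each case the gap to the nearest mouse, as a share of the range of the group, was above Dixon's critical value for 4 samples. All 6 were MS mice. MS mouse 1 was the highest on Ube3a A_66_P110924, at -2.76 with the next at -3.27 (ratio 0.848), on Mest A_55_P2090025, at 1.96 with the next at 1.79 (0.861), and on Sgce, at 1.97 with the next at 1.68 (0.875). MS mouse 4 was the highest on Snrpn A_52_P354390, at 4.45 with the next at 4.31 (0.902), and the lowest on Dcn, at -0.76 with the next at -0.67 (0.831). MS mouse 3 was the lowest on Impact A_66_P108138, at -0.89 with the next at -0.52 (0.883). Of these probes, Snrpn A_52_P354390 is among those on which MS and control mice did not overlap, and MS mouse 4 was the MS mouse nearest to the control mice there.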

How the results depend on the processing

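No member probe passed the threshold in the values reported above, whereas 3 did with normexp background correction, 3 with the deposited values and 3 with a variance trend and robust moderation, all lower in MS mice. Over the whole array normexp called 395 probes lower and 91 higher, the deposited values 306 and 69, and the trend 390 and 114. The 2 Nap1l5 probes were called by each of the 3, the Gnas probe A_55_P2081318 by normexp (-1.10) and the deposited values (-1.38), and the Gnas probe A_55_P2081313 by the trend (-0.37, adjusted p = 0.0362). The cause was not tested. Probes without overlap numbered 7 lower and 1 higher with the deposited values, where the Gnas probe A_55_P2081313 overlapped. Leaving out control replicate 4 gave 6 higher. The shares of all tested probes without overlap were not counted under these settings, so these numbers cannot be read against the whole array.

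Leaving out each mouse in turn gave 0 member probes past the threshold each time. Probes without overlap then ran over 11 to 15 on the lower side and 3 to 6 on the higher side, which fewer mice make easier to reach. The share of all tested probes was not counted for these runs either. The median difference ran over -0.18 to -0.06 for paternally expressed and -0.15 to -0.07 for maternally expressed genes, and the Gnas differences over -3.02 to -2.31, -0.78 to -0.43 and -0.43 to -0.31 for A_55_P2081318, A_55_P2081323 and A_55_P2081313. No paired analysis was possible because the labels give no replicate number that the groups share, other than by slide position: each of the 4 slide columns held 1 MS and 1 control mouse, and with slide column, or slide row, as a block no member probe was called. Dim probes are limited by background: the 15 member probes that were not tested have no firm difference.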
